A study of Mus musculus with 18 samples.

Results

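The comparison reported here set hearts of mice given isoproterenol together with 1 µm polystyrene particles against hearts of mice given isoproterenol alone. Its members are libraries, taken by their treatment label: 6 libraries of ISO+1 µm PS and 6 of ISO, which is 12 of the 18 heart RNA-seq libraries of the series. All mice were male wild-type C57BL/6, and every animal, controls included, received isoproterenol at 2.5 mg/kg/day under the skin in PBS for 21 days. The ISO+1 µm PS mice were also gavaged with polystyrene at 50 mg/kg/day over the same 21 days, and the ISO mice were gavaged with water. The remaining 6 libraries, ISO+100 nm PS, had the same dose in smaller particles and entered the model to share its estimate of the spread and to test particle size. Mice without isoproterenol are not part of the data analysed here, so each value is a difference on top of isoproterenol. The labels do not state that each library is a separate mouse, so the p-values measure the spread between libraries. In the main fit that spread is pooled over all 18 libraries and not taken from the 12 alone.

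Isoproterenol is an agonist of beta-adrenergic receptors, and repeated dosing in mice is a standard way to produce cardiac hypertrophy, myocyte loss and interstitial fibrosis. In that response fibroblasts and mural cells (the smooth muscle cells and pericytes of vessel walls) lay down collagen and basement membrane under transforming growth factor beta, while myocytes lose calcium-handling and energy-producing capacity. Polystyrene micro- and nanoparticles are used as model plastic particles, and cells can take up such particles by endocytosis.

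Sequencing was done in 2 batches by different providers, after poly(A) selection. Batch 1 held ISO replicates 1 to 3 and 1 µm PS replicates 1 to 4, and batch 2 held ISO replicates 4 to 6 and 1 µm PS replicates 5 and 6. Counts per library ran from 14032257 to 22600570. Heart myocyte transcripts were abundant everywhere, with 8 defining markers summing to 34485 to 86760 CPM (counts scaled to a common library size) in ISO and 43000 to 105631 CPM in 1 µm PS. ISO replicate 2 stood apart: it lay at 237.6 on a first principal component that held 54.2% of the variance, had 12792 genes detected, and carried 144 CPM of summed skeletal muscle markers against a lowest ISO value of 4.47 CPM. In ISO replicate 1, 42.39% of the counts were mitochondrial protein transcripts. Counts for gene groups below are also given without ISO replicate 2, to be read against the share of all genes called in that fit. In whole-heart RNA, fewer cells of a type and less RNA per cell cannot be told apart.

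With edgeR's quasi-likelihood test over all 18 libraries, batch as a term and Benjamini-Hochberg adjustment, 1072 of 14641 genes (7.32%) passed an adjusted p of 0.05. Of these, 421 (2.88% of genes tested) were higher with 1 µm PS and 651 (4.45%) were lower. Changes of at least 2-fold were mostly falls, 235 against 61 rises. Passing in every one of the 18 fits that each left out 1 library was seen for 239 genes, 80 higher and 159 lower. The adjusted p-values given below are from this 18-library fit unless another is named. In this fit 3952 of the 14641 genes had an unadjusted p under 0.05. Such counts for members of lists below are to be read beside it. The count depended on which libraries shared the spread. Without ISO replicate 2, 715 genes (4.82%) were higher and 1277 (8.61%) lower, together 13.4% of those tested, and without ISO replicates 1 and 2 the total was 964. In batch 1 alone, 601 genes passed (3.98%), 257 higher (1.7%) and 344 lower (2.28%), and in batch 2 alone 11. With the 12 ISO and 1 µm PS libraries alone, 0 genes passed in edgeR (2709 had an unadjusted p under 0.05, and the lowest adjusted p was 0.101), and with ISO replicate 2 also left out 318 (2.24%) passed, 31 higher (0.219%) and 287 lower (2.02%). Leaving out single libraries gave from 267 genes (without 1 µm PS replicate 1) to 2341 (without ISO replicate 3). Full separation of the groups within each batch was met by 3.12% of genes on the higher and 1.91% on the lower side, and over both batches by 1.12% and 0.423%; statements below on groups that do not overlap are to be read beside these shares.

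**Figure D1:**
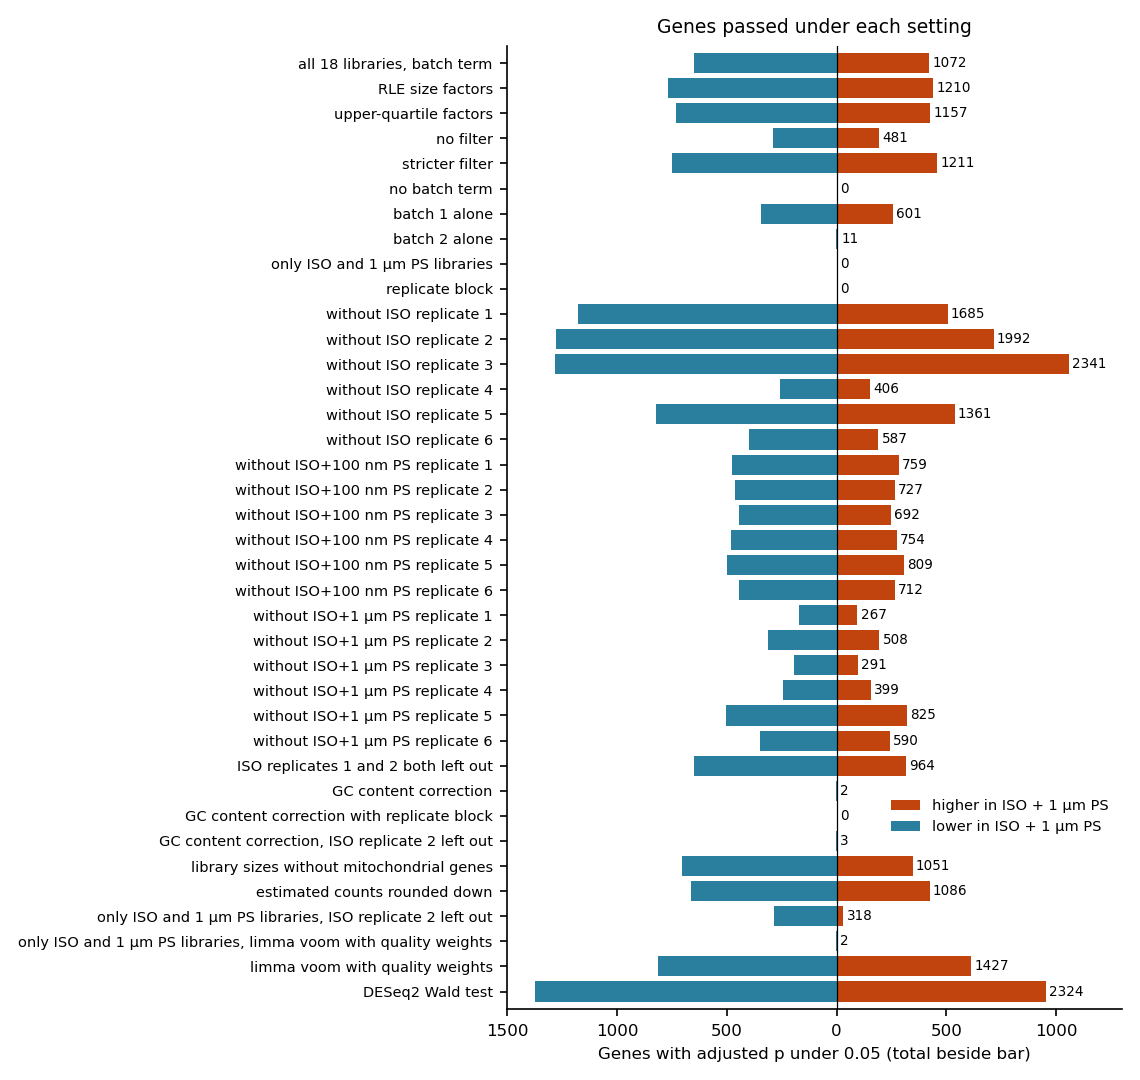
Number of genes with an adjusted p under 0.05 in the comparison of ISO + 1 µm PS with ISO, under each setting of the analysis. Bars to the right count genes higher with 1 µm PS and bars to the left genes lower, with the total beside each bar. The 18-library fit gave 1072, and the fits without a batch term, with the 12 libraries alone and with the replicate block gave 0.

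The genes on the 2 sides differed in base composition. The median GC content of the longest annotated transcript was 57.61% for the genes that were higher, 42.22% for those that were lower and 49.82% for all genes tested. In 10 groups of genes of equal size ordered by GC content, the median log2 fold change ran from -0.51 in the lowest group to 0.47 in the highest, and it ran the same way in each batch taken alone (-0.40 to 0.48 in batch 1, -0.70 to 0.37 in batch 2). The lowest group held 264 genes that were lower and 0 that were higher, and the highest held 6 and 195. The libraries showed the same tilt one by one. Spearman's rho across genes, between GC content and the deviation of log2 CPM from the batch mean, was 0.18 to 0.32 in the 1 µm PS libraries and -0.60 to 0.01 in the ISO libraries, with no overlap (genes are not independent replicates). After a correction for GC content, 2 genes passed (0.0137%), 1 on each side (0.00683% each): Bcap29, an endoplasmic reticulum sorting protein, at -0.97 (SE 0.15, adjusted p = 0.0475), and Esyt1, a tether between endoplasmic reticulum and plasma membrane, at 0.76 (SE 0.12, adjusted p = 0.0475). That correction moved the median of all genes to -0.11, and GC-corrected medians below are to be read against this value.

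**Figure D2:**
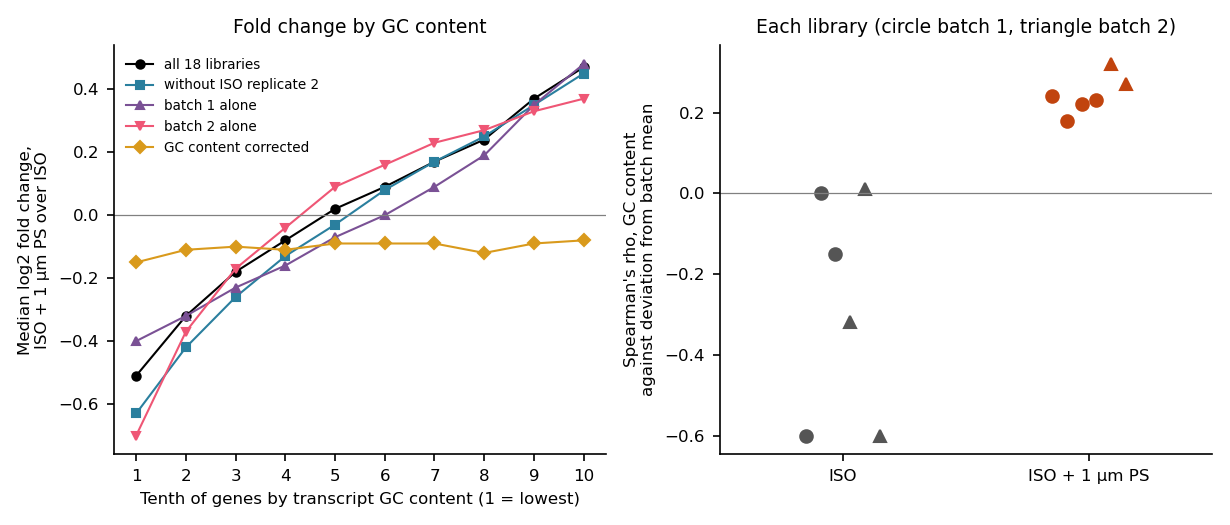
Left, median log2 fold change of ISO + 1 µm PS over ISO in 10 equal groups of genes ordered by transcript GC content, for 5 fits; it rises from -0.51 to 0.47 with all 18 libraries and lies between -0.15 and -0.08 after GC correction. Right, Spearman's rho of each library between GC content and deviation from its batch mean; all 6 libraries of ISO + 1 µm PS lie above all 6 of ISO.

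RefSeq promoter windows (250 bases before to 50 after the start, build GRCm38.p6, the first window of each gene) were matched for 11238 of the genes tested. Promoter GC content differed less than transcript GC content, with medians of 63.7% for the genes that were higher, 59.7% for those that were lower and 60.7% for all. A GC box (GGGCGG, either strand) was in 72.5% of promoters of higher genes, 58.2% of lower genes and 62.4% of all. The letters TATAAA (either strand) were in 6.1%, 9.1% and 7.5%. A further motif, the CArG box of serum response factor, was in 0.9%, 1.1% and 1.3%, and GTGGGAA, the core of the site bound by the Notch effector RBPJ, was in 8.5%, 6.8% and 6.2%, again on either strand. The windows of Notch3 (chr17:32166841-32167140, minus strand), Tgfb1 (chr7:25686752-25687051, plus strand) and Pln (chr10:53337436-53337735, plus strand) are shown because these genes, 2 that rose and 1 that fell, span the range of base composition: 70.0%, 77.0% and 36.0% GC. Capitals mark GC boxes and TATAAA, neither of which overlapped the other in these windows.
Notch3: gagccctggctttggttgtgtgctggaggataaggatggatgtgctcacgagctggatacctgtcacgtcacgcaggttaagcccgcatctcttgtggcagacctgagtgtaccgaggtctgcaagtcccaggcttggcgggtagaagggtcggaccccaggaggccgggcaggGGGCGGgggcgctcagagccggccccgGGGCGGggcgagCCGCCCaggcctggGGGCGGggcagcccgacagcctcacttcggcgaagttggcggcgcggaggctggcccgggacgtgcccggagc
Tgfb1: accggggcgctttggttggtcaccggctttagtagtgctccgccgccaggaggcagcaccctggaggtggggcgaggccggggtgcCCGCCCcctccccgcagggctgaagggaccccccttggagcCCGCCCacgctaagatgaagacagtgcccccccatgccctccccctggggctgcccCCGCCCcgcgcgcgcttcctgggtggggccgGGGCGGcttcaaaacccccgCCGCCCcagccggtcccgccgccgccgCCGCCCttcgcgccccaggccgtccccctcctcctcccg
Pln: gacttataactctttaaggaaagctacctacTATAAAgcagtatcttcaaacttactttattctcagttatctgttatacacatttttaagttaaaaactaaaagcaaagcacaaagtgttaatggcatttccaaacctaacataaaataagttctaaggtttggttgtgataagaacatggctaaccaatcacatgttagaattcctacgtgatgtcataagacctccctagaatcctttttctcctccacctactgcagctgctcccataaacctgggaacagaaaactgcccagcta
The scan found 4 GC boxes in the window of Notch3, 6 in that of Tgfb1 and 0 in that of Pln, which held 1 TATAAA. A match of letters is a description of the window and was not tested for binding.

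Some genes of vessel walls rose with 1 µm PS. Of 18 smooth muscle and pericyte markers, 6 rose and 0 fell (14 had a positive and 4 a negative fold change), and their median log2 fold change was 0.65, beside -0.00 for all genes tested. Without ISO replicate 2, 8 rose and the median was 0.51; after GC correction 0 passed and the median was 0.22. The summed level of the list was 995 to 2525 CPM in ISO, lowest in ISO replicate 2, and 2169 to 2868 CPM in 1 µm PS. Notch3, the Notch receptor of mural cells, had 32.3 CPM at the lowest, 49 at the median and 76.9 at the highest in ISO, and 84.9, 100 and 114 CPM in 1 µm PS. Every 1 µm PS library was above every ISO library. The log2 difference was 1.02 (SE 0.19, adjusted p = 0.012), at 0.96 for batch 1 and 1.03 for batch 2, and 0.47 after GC correction. Cspg4, the NG2 proteoglycan of pericytes, went from 20, 34.8 and 48 CPM in ISO to 44.8, 55.7 and 86.2 CPM, a log2 difference of 0.86 (SE 0.16, adjusted p = 0.012). The groups overlapped slightly over both batches, but within each batch every 1 µm PS library was higher. After GC correction the difference was 0.28 (adjusted p = 0.302). Acta2, smooth muscle actin (0.99, adjusted p = 0.0257), Lmod1, a smooth muscle leiomodin (1.13, adjusted p = 0.026), Smtn, the contractile protein smoothelin (0.73, adjusted p = 0.0139), and Pdgfrb, the PDGF receptor of mural cells (0.59, adjusted p = 0.0312), also rose. Tagln, another smooth muscle gene, was at or under 0.272 CPM in every batch 1 library and at 64.5 to 124 CPM in batch 2, so it was measured in effect in batch 2 only. Of the markers that did not pass, Myh11 was at 1.22 (adjusted p = 0.0503) and Rgs5, a pericyte regulator of G-protein signalling, at -0.17 (adjusted p = 0.774).

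Other members of the Notch pathway rose with Notch3. The pathway passes signals between touching cells: Delta-like and Jagged ligands on a cell activate Notch receptors on its neighbour, and the receptor's inner part then turns on Hes and Hey genes. Of 17 genes of the pathway, 3 rose, 0 fell, and the median was 0.61 (0.48 without ISO replicate 2, 0.27 after GC correction). Notch4, the endothelial receptor, ran from 35.1 through 47.5 to 55.9 CPM in ISO and from 69.2 through 84.1 to 103 CPM in 1 µm PS (0.87, SE 0.17, adjusted p = 0.0133). Jag2, a ligand, ran from 21.8 through 54.9 to 60 CPM and from 70.4 through 86.7 to 98.2 CPM (0.80, SE 0.21, adjusted p = 0.0289). For both, no ISO library reached the lowest 1 µm PS library. After GC correction Notch4 was at 0.24 and Jag2 at 0.18. The ligand Dll4 was at 0.69 (adjusted p = 0.0508). Among the pathway's targets, Hes1 was at 0.46 (adjusted p = 0.201), Hey1 at 0.31 (adjusted p = 0.312) and Heyl at 0.54 (adjusted p = 0.248), none of which passed.

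Endothelial markers leaned the same way, with 3 of 21 higher, 0 lower and a median of 0.53 (0.35 without ISO replicate 2, 0.32 after GC correction). The 3 were Eng, the co-receptor endoglin (0.72, SE 0.18, adjusted p = 0.0281), Robo4, a guidance receptor that stabilises vessels (0.71, adjusted p = 0.0317), and Nos3, the endothelial nitric oxide synthase (0.98, adjusted p = 0.0459). Eng was 172 to 389 CPM in ISO and 379 to 555 CPM in 1 µm PS, so the groups met at their edges, and its GC-corrected difference was 0.22. Pan-endothelial Pecam1 (0.44, adjusted p = 0.228) and Cdh5 (0.92, adjusted p = 0.15) did not pass. The summed level of the list was 1870 to 4930 CPM in ISO, again lowest in ISO replicate 2, and 3717 to 5381 CPM in 1 µm PS.

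**Figure D3:**
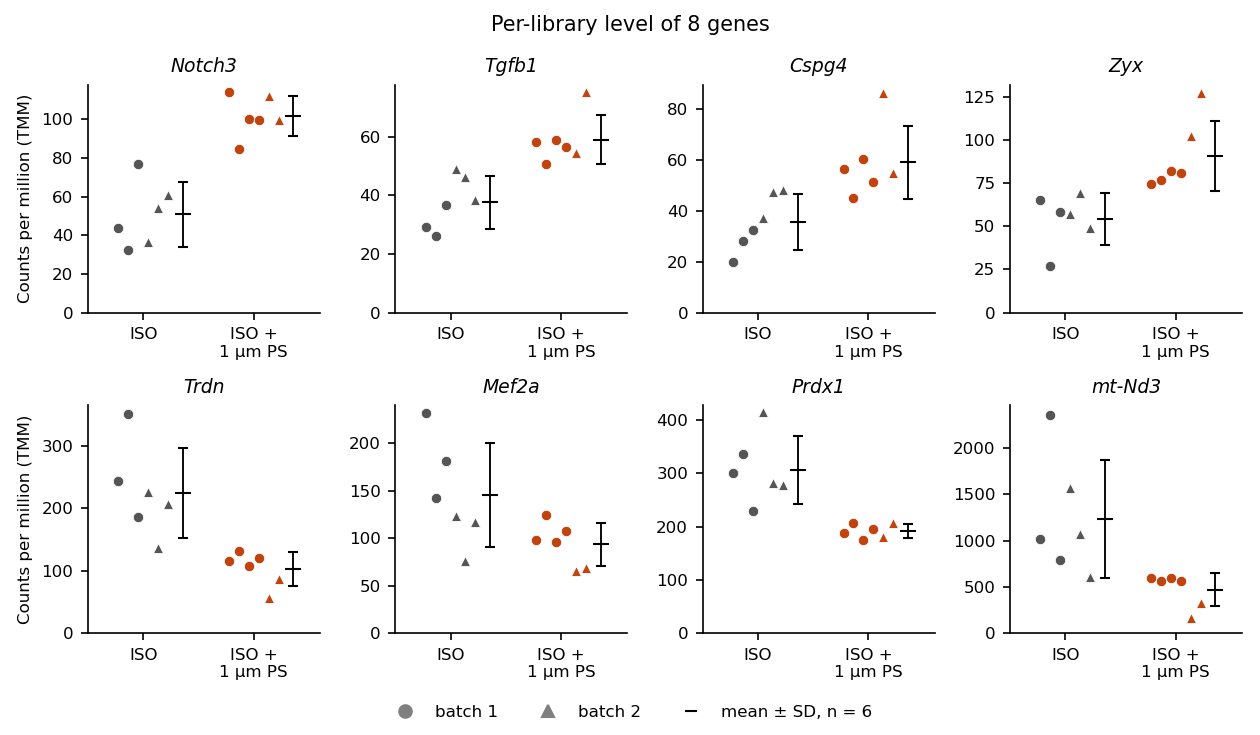
TMM-normalised CPM of 8 genes in each of the 6 ISO and 6 ISO + 1 µm PS libraries (circles batch 1, triangles batch 2; bars mean and SD). Notch3, Tgfb1, Zyx, Trdn, Prdx1 and mt-Nd3 do not overlap between the groups, while Cspg4 and Mef2a overlap over both batches and are separated within each.

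Some ligands and carriers of transforming growth factor beta rose, with the endothelial receptor Acvrl1 and its co-receptor Eng. Of 30 genes of TGF-beta and BMP signalling, 6 rose, 0 fell and the median was 0.44 (0.18 after GC correction). Without ISO replicate 2, 9 rose and 3 fell, with a median of 0.26. In that fit 4.82% of all genes were higher and 8.61% lower, so the falls were near the share of all genes. The 3 that fell were receptors: Bmpr1a (-1.01), Bmpr2 (-0.75) and Tgfbr1 (-0.66). Tgfb1, the main fibrogenic ligand, was 26.1, 37.5 and 49 CPM (lowest, median, highest) in ISO and 50.8, 57.4 and 75.3 CPM in 1 µm PS. No library of one group reached the other, and the log2 difference was 0.74 (SE 0.14, adjusted p = 0.012). Tgfb3, another ligand, was at 1.10 (SE 0.25, adjusted p = 0.0203). The carriers that hold latent ligand in the matrix, Ltbp3 (1.00, adjusted p = 0.0245) and Ltbp4 (1.07, adjusted p = 0.0317), rose, with Ltbp4 going from 92 to 562 CPM in ISO to 775 to 936 CPM in 1 µm PS. Acvrl1, the endothelial type I receptor ALK1, rose by 0.58 (adjusted p = 0.031), and Eng, counted here too, is its co-receptor. The receptor Tgfbr1 was at -0.45 (adjusted p = 0.207), and the target genes Ccn2 (0.86, adjusted p = 0.0552) and Smad7 (0.72, adjusted p = 0.0659) did not pass; without ISO replicate 2, Ccn2 (0.96, adjusted p = 0.0298) and Smad7 (0.49, adjusted p = 0.0335) did.

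Basement membrane, the sheet of matrix under endothelium and around myocytes and mural cells, had 7 of 22 genes higher and 0 lower, with a median of 0.55 (0.25 without ISO replicate 2, where 7 were again higher, and 0.19 after GC correction). Col18a1, the collagen that gives rise to endostatin, was 11.7, 18.5 and 45.4 CPM in ISO and 40.2, 48.8 and 55.4 CPM in 1 µm PS. The groups overlapped, and the difference was 1.28 (SE 0.28, adjusted p = 0.0178), 1.82 within batch 1 and 0.50 within batch 2. Hspg2, the proteoglycan perlecan, rose from 126, 516 and 681 CPM to 712, 930 and 1119 CPM (0.93, adjusted p = 0.0426), with no overlap. Both chains of the main collagen IV network, Col4a1 (0.82, adjusted p = 0.0286) and Col4a2 (0.95, adjusted p = 0.043), the laminin chain Lamb2 (0.61, adjusted p = 0.0406) and the proteoglycan agrin, Agrn (0.77, adjusted p = 0.0361), rose as well. The laminin chain Lamc3 also passed (1.92, adjusted p = 0.0475), from levels of at most 0.662 CPM in ISO.

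Enzymes that build and remodel the matrix held the most rises of the 42 lists, 10 of 30 genes with 0 falls and a median of 0.68 (9 and 0.56 without ISO replicate 2, a median of 0.28 after GC correction). They covered collagen folding and hydroxylation (Serpinh1 at 0.67, Plod1 at 0.55 and Plod3 at 0.55), removal of the procollagen ends (Bmp1 at 0.73, Pcolce at 0.95 and Adamts2 at 0.85), crosslinking (Loxl1 at 0.80 and Loxl3 at 1.05) and matrix digestion (Mmp2 at 0.71 and Mmp14 at 0.72). Plod3, a lysyl hydroxylase, was 35.3, 38.8 and 51.1 CPM in ISO and 50.1, 59.5 and 64.4 CPM in 1 µm PS (SE 0.12, adjusted p = 0.0184). Its GC-corrected difference was 0.01. Mmp2, the gelatinase A of fibroblasts, was 48.9, 74.9 and 89.6 CPM in ISO and 90.9, 117 and 197 CPM in 1 µm PS (SE 0.21, adjusted p = 0.0435), with no overlap.

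Of 38 collagens and interstitial matrix genes, 5 rose and 1 fell, with a median of 0.88 (0.67 without ISO replicate 2, 0.52 after GC correction). Fbln2, the microfibril-associated fibulin 2, was 74.6, 132 and 161 CPM in ISO and 194, 220 and 251 CPM in 1 µm PS, with no overlap (0.83, SE 0.17, adjusted p = 0.0133; 0.35 after GC correction). Emilin1, an elastic fibre glycoprotein (0.95, adjusted p = 0.0182), Col6a2 (1.11, adjusted p = 0.0303), Col5a1 (1.11, adjusted p = 0.0359) and Col16a1 (1.37, adjusted p = 0.0378) rose. The fibrillar collagens of scar had large but scattered differences. Col1a1 was 11.3, 149 and 260 CPM in ISO and 258, 327 and 613 CPM in 1 µm PS, a difference of 1.41 (SE 0.47, adjusted p = 0.069), which passed without ISO replicate 2 (1.07, adjusted p = 0.0271). Col3a1 was at 0.77 (adjusted p = 0.13). Postn, periostin of activated fibroblasts, was at 0.90 (adjusted p = 0.231), and its sign turned from 1.72 in batch 1 to -0.46 in batch 2. The gene that fell was Ogn, the small proteoglycan osteoglycin (-1.19, adjusted p = 0.0437; batch 1 gave -0.87 and batch 2 gave -1.62). Of 16 fibroblast markers 2 rose, Pi16 (0.96, adjusted p = 0.0349) and Thy1 (0.83, adjusted p = 0.0358), and 0 fell. Fibroblast markers had a median of 0.36, made up of 0.66 for batch 1 and -0.05 for batch 2.

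Genes of adhesion and of uptake by endocytosis added some rises. Zyx, zyxin of focal adhesions, was 26.9, 57.6 and 69 CPM in ISO and 74.6, 81.5 and 127 CPM in 1 µm PS (0.78, SE 0.18, adjusted p = 0.0213). Its groups did not overlap, and it was at 0.32 after GC correction. With Itga5, the fibronectin receptor subunit (1.06, adjusted p = 0.0316), it made up the 2 of 25 integrin and adhesion genes that rose (0 fell, median 0.35). In the fit lacking ISO replicate 2, 3 rose, talin (Tln1, 0.67) among them, and the integrin Itgav fell (-0.68). Of 29 genes of clathrin- and caveolin-linked endocytosis, 6 rose, 0 fell and the median was 0.08. When ISO replicate 2 was left out, 7 rose and 4 fell, with a median of 0.12: the vesicle GTPases Rab5a (-0.85) and Rab11a (-0.71), the caveolin Cav2 (-0.86) and the scavenger receptor Msr1 (-0.81) were lower. Dnm2, the dynamin that cuts vesicles from the membrane, was 33.7, 68.1 and 86.3 CPM in ISO and 76.9, 88.6 and 149 CPM in 1 µm PS (0.73, SE 0.16, adjusted p = 0.0178). The receptors Scarb1 (0.77, adjusted p = 0.0193), Lrp1 (0.87, adjusted p = 0.0345) and Stab1 (0.55, adjusted p = 0.0397) and the clathrin adaptors Ap2a1 (0.48, adjusted p = 0.0452) and Epn1 (0.88, adjusted p = 0.0459) rose. Clathrin itself, Cltc, was at -0.17 (adjusted p = 0.714) and caveolin, Cav1, at 0.07 (adjusted p = 0.894). After GC correction Dnm2 was at 0.26, Ap2a1 at -0.10 and Stab1 at 0.04. In the 11 libraries of ISO and 1 µm PS left without ISO replicate 2, the lists above held fewer rises. The smooth muscle and pericyte, Notch and TGF-beta lists had 2 each. Endothelial, basement membrane, matrix enzyme, collagen, fibroblast, adhesion and endocytosis lists had 0, beside 0.219% of all genes. Notch3 (0.83, adjusted p = 0.047) and Cspg4 (0.80, adjusted p = 0.0469) passed there. Tgfb1 (0.61, adjusted p = 0.0556) and Fbln2 (0.64, adjusted p = 0.0597) did not.

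In the lists of calcium handling, sarcomere, ion channel and stress genes, the members that passed with all 18 libraries were lower. Trdn encodes triadin, which anchors calsequestrin to the calcium release channel of the sarcoplasmic reticulum, and it had the lowest p in the calcium list. It was 137, 216 and 350 CPM in ISO and 57, 112 and 131 CPM in 1 µm PS. All 6 libraries of 1 µm PS were below all 6 of ISO, and the difference was -1.24 (SE 0.17, adjusted p = 0.00744); batch 1 alone gave -1.12 and batch 2 alone -1.42. It was at -1.03 after GC correction (adjusted p = 0.093) and at -1.16 in the 11 libraries of ISO and 1 µm PS left without ISO replicate 2 (adjusted p = 0.0401). With GC correction and ISO replicate 2 left out together it was at -0.47 (adjusted p = 0.146). Of 27 genes of calcium release and handling, 4 fell, 0 rose and the median was -0.21 (5 fell without ISO replicate 2, median -0.21). The others were Cacna2d1, a subunit of the L-type calcium channel (-0.91, adjusted p = 0.0232), Pln, phospholamban, the brake on the calcium pump (-0.72, adjusted p = 0.0439), and Strit1, the micropeptide DWORF that relieves that brake (-3.43, adjusted p = 0.0184). Strit1 held 35 CPM at the highest in ISO and a median of 2.43, and its difference was -1.90 without ISO replicate 2. The calcium pump Atp2a2 was at -0.29 (adjusted p = 0.619), negative in batch 1 (-1.06) and positive in batch 2 (0.75), and the release channel Ryr2 was at -0.37 (adjusted p = 0.468).

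Among transcription factors and scaffolds of myocytes, Mef2a, which drives muscle genes, was 75.9, 134 and 232 CPM in ISO and 65.3, 97.1 and 125 CPM in 1 µm PS. The groups overlapped over both batches and were separated within each, and the difference was -0.74 (SE 0.15, adjusted p = 0.0133). Nebl, nebulette of the Z-disc, was at -0.88 (SE 0.20, adjusted p = 0.0189), the 1 call among 30 sarcomere genes, as Mef2a was among 17 genes of stress and stretch, shares near the 4.45% of all genes that were lower. Kcnj3, a subunit of the acetylcholine-gated potassium channel, fell from 14.9, 50.4 and 64.7 CPM to 16.5, 22.5 and 35.1 CPM (-0.95, SE 0.23, adjusted p = 0.0255), the 1 call among 21 sodium, potassium and gap junction channel genes, likewise near that share. With ISO replicate 2 left out, Kcnj2 (-0.67) and Kcnd3 (-0.63), potassium channels of repolarisation, were lower too. In batch 1 alone 4 channel genes were lower and 1 was higher. In the fits without ISO replicate 2, 1 sarcomere gene and 2 genes of stress and stretch (Mef2a and Mef2c) were lower. In batch 1 alone, the sarcomere list and the stress and stretch list each had 1 gene higher and 1 lower. The usual indicators of cardiac stress did not pass. Nppa, atrial natriuretic peptide, was 99.3, 482 and 908 CPM in ISO and 216, 445 and 915 CPM in 1 µm PS, with 1.68 in batch 1 and -0.89 in batch 2. Nppb, the B-type peptide, was at -0.17 (adjusted p = 0.84) and at 0.65 without ISO replicate 2. Myh6, the adult myosin heavy chain, was at 0.62 (adjusted p = 0.0835), Myh7, the fetal heavy chain, at 0.70 (adjusted p = 0.0767) and Acta1, skeletal actin, at 0.62 (adjusted p = 0.341). Of 26 genes of beta-adrenergic and cAMP signalling, the pathway isoproterenol acts through, 0 passed in edgeR (6 had an unadjusted p under 0.05) and the median was 0.07; without ISO replicate 2 1 passed, the G-protein subunit Gnai2 (0.42).

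Some genes of energy production fell, and how many depended on ISO replicate 2. Of 37 nuclear complex I genes 7 fell and 0 rose, with a median of -0.81; without ISO replicate 2, 3 fell and the median was -0.32. Of 40 nuclear genes of complexes II to V 8 fell and 0 rose, with a median of -0.76 against 1 and -0.34 without that library. Of all genes, 4.45% were lower with all 18 libraries and 8.61% without ISO replicate 2. In the latter fit neither list exceeded that share. Cytosolic ribosomal proteins behaved alike in this respect: 15 of 45 fell with a median of -1.08, and 0 fell with a median of -0.39 without ISO replicate 2. Ribosomal protein genes have many near-identical copies, so their counts are uncertain. Ndufs4, a complex I subunit, was 179, 271 and 674 CPM in ISO and 93.5, 172 and 198 CPM in 1 µm PS (-1.16, SE 0.28, adjusted p = 0.024; -0.78 and adjusted p = 0.0433 without ISO replicate 2). Cox7a2, of cytochrome oxidase, was 302, 478 and 1699 CPM in ISO and 140, 309 and 357 CPM in 1 µm PS (-1.47, adjusted p = 0.0205; -0.98 and 0.0396). In both, the highest ISO value was that of ISO replicate 2.

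The mitochondrial genome itself, counted from 13 protein genes, had 2 falls and 0 rises with a median of -0.72, and without ISO replicate 2 the count was 7 and the median -1.01. After GC correction the median was -0.18. mt-Nd3, a complex I subunit, was 603, 1041 and 2352 CPM in ISO and 169, 568 and 601 CPM in 1 µm PS (-1.63, SE 0.30, adjusted p = 0.0125), the groups standing apart by the narrow gap from 601 to 603 CPM. The other was mt-Nd1 (-0.80, adjusted p = 0.0308). The share of batch 2 counts that could be joined across the tables was 85.16% to 87.45% in ISO and 93.13% and 95.78% in 1 µm PS; its part in the mitochondrial values was not tested. Fuel supply had fewer calls: 3 of 37 genes of fatty acid uptake and oxidation fell (Decr1 at -0.87, Cd36 at -0.80 and Lpl at -0.86). The median over all 37 was -0.80 for batch 1 and 0.25 for batch 2. Without ISO replicate 2, 3 again fell, a share no higher than the 8.61% of all genes lower in that fit. Mpc2, a subunit of the mitochondrial pyruvate carrier, fell (-1.14, adjusted p = 0.0266), the 1 call among 32 glucose and pyruvate genes. That share was under the 4.45% of all genes that were lower. Mpc2 was at -0.61 without ISO replicate 2, where its partner Mpc1 fell as well (-0.52). In the citric acid cycle, Sucla2, which makes succinate from succinyl-CoA, went from 299, 542 and 724 CPM to 246, 310 and 406 CPM (-0.83, SE 0.18, adjusted p = 0.0178), and Dld was at -0.86 (adjusted p = 0.0279), 2 of 19 with and without ISO replicate 2.

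Stress, inflammatory and mitophagy genes gave a few calls each. Counts here and in the next paragraph are to be read beside the 2.88% of all genes that were higher and the 4.45% that were lower. Without ISO replicate 2 these shares were 4.82% and 8.61%. Prdx1, a peroxiredoxin that removes hydrogen peroxide, was 230, 291 and 416 CPM in ISO and 175, 193 and 207 CPM in 1 µm PS, without overlap (-0.65, SE 0.15, adjusted p = 0.0193). Sod3, the extracellular superoxide dismutase of vessel walls, went the other way, from 9.11, 50.7 and 86.9 CPM to 88.5, 91.8 and 118 CPM (1.11, SE 0.32, adjusted p = 0.0415). These were the 2 calls among 24 antioxidant and NRF2 target genes, near the shares of all genes in both directions. Without ISO replicate 2 there was again 1 in each direction. Fundc1 (-0.75, SE 0.14, adjusted p = 0.0127) and Bnip3 (-0.70, adjusted p = 0.0282), receptors that mark mitochondria for autophagy, fell, and the cargo adaptor Sqstm1 rose (0.49, adjusted p = 0.0487), while the other 19 of 22 autophagy and lysosome genes did not pass. In the fit lacking ISO replicate 2, 4 fell, adding the lysosomal membrane protein Lamp2 (-0.92) and the mitophagy receptor Bnip3l (-0.50), and the 1 that rose was Vps18 (0.51) and not Sqstm1. Rela, the p65 subunit of NF-kappaB, was 33.2, 42.2 and 50 CPM in ISO and 50.7, 56.6 and 68.4 CPM in 1 µm PS (0.52, SE 0.11, adjusted p = 0.0178). After GC correction Rela was at -0.06 (adjusted p = 0.827), beside a median of -0.11 for all genes. Nfkb2 (0.78, adjusted p = 0.0262) and Nfkb1 (0.46, adjusted p = 0.0402) rose as well, and Nfkb1 was at 0.53 after GC correction. Ccl12, a monocyte chemokine, fell (-2.47, adjusted p = 0.0385), a call lost when ISO replicate 2 was left out (-0.88, adjusted p = 0.155), which left 3 higher and 0 lower of 25.

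Jun, an AP-1 factor, rose from 31.2, 48.8 and 62.9 CPM to 62.3, 74.3 and 102 CPM (0.78, SE 0.18, adjusted p = 0.0193) and Maff by 0.70 (adjusted p = 0.0464), 2 of 25 immediate early genes. When ISO replicate 2 was left out, Jund (0.63) and Socs3 (0.72) joined them; after GC correction Jun was at 0.40. Bak1, a pore-forming protein of apoptosis (0.63, adjusted p = 0.0309), and Trp53 (0.84, adjusted p = 0.0474) were the 2 of 21 cell death genes that rose. With ISO replicate 2 left out, 3 rose and 2 fell, the falls being Mdm2 (-0.40) and the transferrin receptor Tfrc (-0.82). Hspe1, the small partner of the mitochondrial chaperonin, fell (-1.06, adjusted p = 0.0293), the 1 call of 23 folding genes. That share was near the 4.45% of all genes that were lower. Without ISO replicate 2 Hspe1 was at -0.56, and 4 folding genes fell. The others were Dnajb9 (-0.99), Canx (-0.57) and Hsp90b1 (-0.47), while Dnajb1 rose (0.70). Iigp1, an interferon-induced GTPase, fell with 915 CPM in ISO replicate 2 against at most 64.9 CPM in the other ISO libraries (-2.37, adjusted p = 0.0238; -0.86 and 0.0164 without that library).

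With all 18 libraries, markers of other cells that a heart sample can hold gave 0 calls in edgeR. This covered 19 macrophage, 8 lymphocyte, 3 neutrophil, 6 erythroid, 13 mesothelial, 9 Schwann cell and neuron, 4 adipocyte, 6 skeletal muscle and 7 atrial genes that could be tested, of which 18 had an unadjusted p under 0.05. Over all 14641 genes tested, 3952 had such a p. In the fit lacking ISO replicate 2, Cd4 of lymphocytes (1.21) and Sox10 of Schwann cells (1.04) were higher, and in batch 1 alone Atp2a1 of skeletal muscle was lower (-4.76). Skeletal muscle markers had a median of -2.0 (4 of 6 at an unadjusted p under 0.05) and -0.16 without ISO replicate 2, with 5.13 to 28.1 CPM summed in 1 µm PS and at most 144 CPM in ISO. Neutrophil markers had a median of -1.85 (2 of 3) and -1.26 without it, and erythroid markers -0.93 (3 of 6) and -0.01. Macrophage markers summed to 280 to 925 CPM in ISO, with the highest in ISO replicate 2, and 336 to 497 CPM in 1 µm PS, with a median log2 fold change of -0.14. Mesothelial and epicardial markers had a median of 0.76 with wide ranges, 18.1 to 188 CPM summed in ISO and 36.2 to 143 CPM in 1 µm PS. Cell cycle (15 genes), Wnt (19) and angiogenic factor (26) lists likewise had 0 calls in edgeR (1, 3 and 5 genes at an unadjusted p under 0.05), with medians of 0.03, 0.38 and -0.01. When ISO replicate 2 was left out, Ccnd3 (0.52) and Lrp5 (0.67) were higher in the cell cycle and Wnt lists, and Angpt1 (-1.01), Fgf2 (-0.66) and Hif1a (-0.75) were lower in the angiogenic list.

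**Figure D4:**
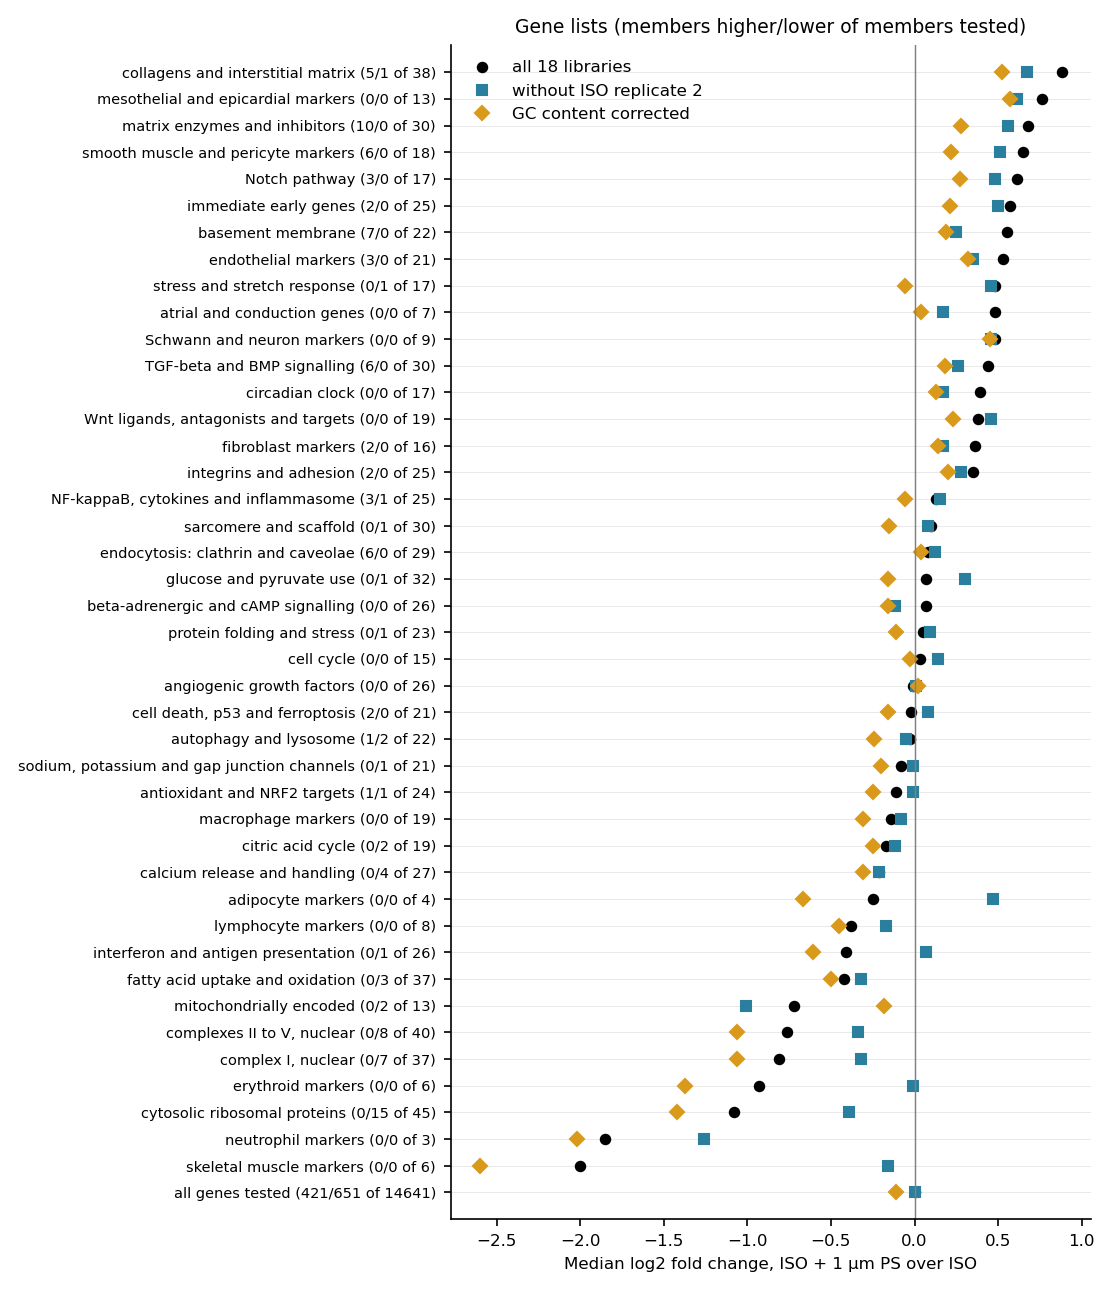
Median log2 fold change of ISO + 1 µm PS over ISO for each of 42 gene lists and for all genes tested, with all 18 libraries (circles), without ISO replicate 2 (squares) and after GC correction (diamonds). The label gives members higher, lower and tested. Matrix, vessel wall and Notch lists lie above 0 in all 3 fits, and ribosomal, complex I and complex II to V lists lie below 0 in all 3 but nearer to it without ISO replicate 2.

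Among genes separated within each batch and at 1 CPM or more on average, the largest rise was that of Prg4, the joint lubricant lubricin, from 6.01, 9.04 and 17.7 CPM to 18.3, 28.1 and 39.2 CPM (1.47, SE 0.38, adjusted p = 0.0294). No library of one group entered the range of the other. Srcap, a chromatin remodelling ATPase (1.27), Ier5l (1.24), Tmem200b (1.22), Nckap5l (1.20), Cercam (1.19), Tcf7l1, a transcription factor that acts in Wnt signalling (1.15), and Siglece, a sialic acid receptor of myeloid cells (1.13), followed. Of the 18 fits that each left out 1 library, Tmem200b, Nckap5l and Tcf7l1 passed in 18, Prg4 in 13 and Srcap in 3. The difference of Srcap was 0.48 in batch 1 and 2.57 in batch 2. In batch 1 it was 14.7 to 50.4 CPM in ISO and 50.5 to 55.7 CPM in 1 µm PS. In batch 2 it was 1.09 to 3.57 CPM in ISO and 17.6 and 10.1 CPM in 1 µm PS. Under the same conditions, which Strit1, Ccl12 and Iigp1 above did not meet, the largest falls were those of Zfp993 (-2.11), the complex I gene Ndufb1 (-2.05), the mitochondrial 16S ribosomal RNA mt-Rnr2 (-1.75), mt-Nd3 (-1.63), Cngb3, a cyclic nucleotide-gated channel subunit (-1.62), Scgb1c1 (-1.62), Zfp119a (-1.52) and Zfp72 (-1.39). Ndufb1 was 40.2, 218 and 484 CPM in ISO and 34.6, 38.3 and 116 CPM in 1 µm PS. Within batch 1 it was at 86.5, 484 and 40.2 CPM in ISO and from 34.6 to 38.9 CPM in 1 µm PS, and in batch 2 from 187 to 335 CPM against 69.5 and 116 CPM. Without ISO replicate 2 its difference was -1.15.

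The difference between the 1 µm PS and ISO libraries was not the same in both batches for some genes. A batch-by-group term passed for 17 of 14641 genes (0.116%; 2310 had an unadjusted p under 0.05), and 4 of the 17 are circadian clock genes, of 17 clock genes tested. That total is not firm: it was 2486 without ISO replicate 2 and fell to 3 without several single libraries, ISO replicate 4 among them. The clock is a loop in which Clock and Arntl turn on Per, Cry and Nr1d genes that shut them down, and Dbp and Ciart are among its outputs. Dbp was 2.54, 13.6 and 27.3 CPM in the 3 ISO libraries of batch 1 and 42.2, 147, 219 and 193 CPM in the 4 libraries of 1 µm PS. In batch 2 it was 236, 202 and 178 CPM in ISO and 35.4 and 14.5 CPM in 1 µm PS. The groups were thus separated in both batches, in opposite directions (3.36 and -3.07, adjusted p = 0.0257 for the batch-by-group term). Ciart (5.61 in batch 1, -2.74 in batch 2, adjusted p = 0.0257) and Nr1d2 (0.65, -2.17, adjusted p = 0.0306) turned the same way. Nfil3, which opposes Dbp at shared sites, turned the other way (-1.27, 2.02, adjusted p = 0.00472). Of the 17 clock genes, 13 had opposite signs in the 2 batches, beside 41.7% of all genes fitted in both. Pooled over batches, 0 of the 17 passed in edgeR (3 had an unadjusted p under 0.05), with a median of 0.39. Other genes with such a term were the matrix and growth factor genes Igfbp7 (1.72 in batch 1, -0.29 in batch 2) and Bmp4 (1.97, -0.69) and the lipid droplet gene Plin4 (-0.56, 0.97). The labels give the light cycle but no hour of collection.

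**Figure D5:**
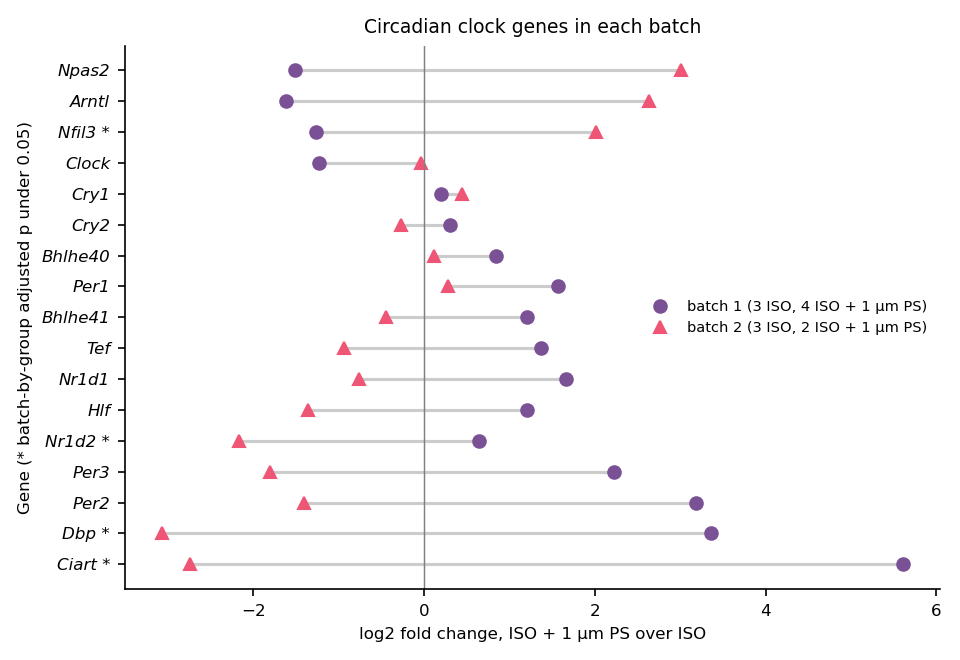
Log2 fold change of ISO + 1 µm PS over ISO for 17 circadian clock genes, in batch 1 (circles) and batch 2 (triangles), each fitted alone. Lines join the values of a gene, and 13 genes change sign between the batches; an asterisk marks the 4 genes whose batch-by-group term passed.

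No gene passed the test of particle size. Between 1 µm and 100 nm PS at the same dose and time, 0 of 14641 genes passed in edgeR and 0 in DESeq2, and 49 had an unadjusted p under 0.05 in edgeR. That is fewer than a threshold of 0.05 passes where nothing differs. The edgeR test took its spread from all 18 libraries, ISO included. In batch 1, libraries of ISO differed pairwise by a chi-square per gene of 195.6 to 618.2. It was 17.1 to 42 in 1 µm PS and 14 to 121.9 in 100 nm PS. In batch 2 it was 35.6 to 80.8 in ISO and 113.9 in 1 µm PS. The 0 calls therefore do not show that the sizes act alike. For Trdn the difference of the 1 µm from the 100 nm group was -0.01, with a 95% interval from -0.37 to 0.35. The intervals for Notch3 (-0.22 to 0.55), Tgfb1 (-0.32 to 0.23), Prdx1 (-0.30 to 0.30) and Acta2 (-0.56 to 0.43) included 0. For Col1a1 the interval was wide, from -1.39 to 0.49, and for Prg4 it ran from -1.24 to 0.27, so differences of that size between particles were not resolved. Of 907 listed or named genes, 8 had an interval that excluded 0 when rounded to 2 decimals, with no adjustment over genes and fewer than 95% intervals exclude by chance. The furthest were the atrial myosin light chains Myl4 (-4.96, from -7.77 to -2.16) and Myl7 (-5.59, from -8.93 to -2.25), lower with 1 µm than with 100 nm PS. Dkk3, Comp, Sfrp2, Cfd and Ncam1 were also lower and the clock gene Cry1 was higher. Dnajb1 (0.55, unadjusted p = 0.0497 in edgeR) was left out of the 8 because its lower bound rounded to 0.00. Against ISO, Myl4 was at -0.13 and Myl7 at 0.49 with 1 µm PS, from levels of at most 5 CPM in either group. Both particle groups were compared with the same ISO libraries. Side by side, Trdn was at -1.24 with 1 µm PS and -1.23 with 100 nm PS, Notch3 at 1.02 and 0.85, Tgfb1 at 0.74 and 0.78, and Prg4 at 1.47 and 1.95.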

How the data were processed

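Poly(A) RNA of heart tissue was sequenced as 18 libraries in 2 batches. Per the submitters' processing notes, the build was GRCm39 and the tools were HISAT2 2.0.5, fastp, featureCounts 1.5.0-p3, StringTie 1.3.3b and DESeq2; the labels do not assign them to the tables. The deposited table of batch 1 holds gene counts, and the deposited table of batch 2 holds estimated counts (19.63% of nonzero values are not whole), which were rounded. The tables were joined by gene ID (22217 genes) or identical symbol (13391). Rows without a gene name held 0.16% to 0.39% of batch 1 counts and were left out.

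edgeR 4.0.16 (R 4.3.3) fitted group and batch over 18 libraries (14 residual degrees of freedom) after TMM scaling and filterByExpr (minimum count 10), with robust quasi-likelihood tests and Benjamini-Hochberg adjustment at 0.05. Fold changes are log2, 1 µm PS over ISO; levels are TMM-scaled CPM, not corrected for length, so they compare libraries and not genes. GC correction used a spline with 5 degrees of freedom on the GC content of GENCODE M21 transcripts (99.8% of genes). limma 3.58.1 and DESeq2 1.42.0 were alternatives. The scripts were tested on simulated counts that held no batch difference, no tilt with GC content and no library set apart. That test does not bear on how such features moved the number of genes that passed.

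Genes named with per-library values are the 8 largest rises and 8 largest falls separated within each batch (at least 1 CPM on average, no ribosomal protein genes or numbered models), the member of lowest p in each of 42 lists, and 12 genes chosen outright; other list members are named with their values. Clock, Bcap29, Esyt1 and batch-by-group genes were added after their values were seen. The comparison and the lists were chosen with earlier results of these data known.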

Additional observations from a re-analysis of the deposited data

Results flagged for a closer look

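In 7 cases the highest or lowest of 6 libraries lay far from the rest by Dixon's test on a log scale of CPM. Chance alone does this in about 1 in 20 groups. The genes concerned are among 53 named with per-library values in both groups, so several such cases would arise by chance alone. ISO replicate 2 was the library in 3 of them: Iigp1 at 915 CPM where the remaining ISO values ran from 20.2 to 64.9 CPM, Zyx at 26.9 CPM against 48.9 to 69 CPM, and Col1a1 at 11.3 CPM against 83.7 to 260 CPM. In 1 µm PS replicate 5, the mitochondrial ribosomal RNA mt-Rnr2 was at 1563 CPM while the others of that group ran from 3783 to 5632 CPM, and Bak1 was at 55.6 CPM against 24.6 to 33.1 CPM. Tgfb1 was at 75.3 CPM in 1 µm PS replicate 6 against 50.8 to 58.7 CPM, and Col1a1 at 613 CPM in 1 µm PS replicate 1 against 258 to 344 CPM.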

How the results depend on the processing

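The number of genes that passed (1072, 421 higher and 651 lower) was within 1.5 times of this under other scaling factors, a stricter filter, library sizes without mitochondrial genes, rounding down, limma voom with quality weights and without ISO replicates 1 and 2 together. It was 481 (193 higher, 288 lower) with no filter, 601 (257, 344) in batch 1 alone, 11 (6, 5) in batch 2 alone, 2324 (952, 1372) with DESeq2, 2 (1, 1) with GC correction and 3 (1, 2) with GC correction and no ISO replicate 2. It was 0 (0, 0) with no batch term (2360 at an unadjusted p under 0.05), with the 12 libraries alone (2709), with the replicate block (2878), and with GC correction and replicate block (1592). Of settings added after seeing the data, the 12 libraries without ISO replicate 2 gave 318 (31, 287) and the 12 libraries with voom weights gave 2 (1, 1). Leaving out 1 library gave 267 to 2341 genes, 94 to 1059 higher and 173 to 1282 lower. Beside those named in the report, the count moved over 1.5 times without ISO replicates 1 (1685), 2 (1992), 4 (406) and 6 (587), without 1 µm PS replicates 2 (508), 3 (291), 4 (399) and 6 (590) and without 100 nm PS replicates 3 (692) and 6 (712). The batch-by-group count of 17 was 26 with RLE factors, 28 with the stricter filter, 710 with DESeq2, 667 with GC correction and 3 to 2486 without 1 library, the highest without ISO replicate 2. The count between particle sizes was 0 in each of the 23 alternatives run. The replicate numbers were not taken to pair libraries, since same-numbered libraries correlated at -0.34 to 0.11 in their deviations from group means.

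Signs turned for Rela with GC correction (-0.06; -0.08 with the replicate block; -0.00 without ISO replicate 2), for Nppa in batch 2 (-0.89), without ISO replicates 1 and 2 (-0.20) and with voom weights (-0.31; -0.03 in 12 libraries), for Postn (-0.46) and Atp2a2 (0.75) in batch 2, and for Nppb in batch 2 (0.37), with the replicate block (0.07), without ISO replicates 1 and 2 (0.60), with GC correction and no ISO replicate 2 (0.70), with voom weights (0.38; 0.20 in 12 libraries), in 12 libraries without ISO replicate 2 (0.60) and over single libraries left out (-0.50 to 0.65). Over the other alternatives of the named genes, 1370 values kept their side of the threshold, 565 lost it and 8 gained it; the cause was not tested. Genes under about 1 CPM, such as Lamc3, rest on few counts.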

Other observations

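Gene families outside the lists, chosen after their values were seen, held further falls, to be read beside the 4.45% of all genes that were lower and the 2.88% that were higher (8.61% and 4.82% without ISO replicate 2). Of 78 mitochondrial ribosomal protein genes, which make the machinery that translates the mitochondrial genome, 13 fell (16.7%) and 0 rose, with a median log2 fold change of -0.49 (7 fell and the median was -0.17 without ISO replicate 2). Of 38 proteasome genes, 7 fell (18.4%) and 0 rose, with a median of -0.35 (6 and -0.12). Of 351 genes with a Zfp symbol, mostly zinc finger transcription factors, 30 fell (8.55%) and 7 rose, with a median of -0.18; without ISO replicate 2, 76 fell and 12 rose. Their median transcript GC content was 43.7%, beside 49.8% for all genes, and their median was -0.09 after GC correction, beside -0.11 for all genes.

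With quality weights in the 12 libraries, the 2 genes that passed were Ap3m1, an adaptor of lysosome-bound vesicles (-0.97, SE 0.14, adjusted p = 0.0178 in limma), and Hspa1b, an inducible heat shock protein (2.30, SE 0.32, adjusted p = 0.0178). In batch 1 the 1 µm PS libraries of Hspa1b overlapped ISO. Hspa1b was 1.38 to 6.39 CPM in ISO, 3.88 to 6.04 CPM in the 1 µm PS libraries of batch 1 and 12.7 and 28.4 CPM in those of batch 2. Ap3m1 was 27.4 to 71.7 CPM in ISO and 26.3 to 31.3 CPM in 1 µm PS. In batch 2 alone, the 11 genes that passed included 7 clock genes (Arntl, Npas2, Nfil3, Dbp, Ciart, Nr1d2 and Per3) and Cdkn1a, the cell cycle inhibitor p21, at 2.03 (adjusted p = 0.0186), with 23.1 to 42.9 CPM in the ISO libraries of that batch and 131 and 137 CPM in 1 µm PS.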
